A study of Homo sapiens with 6 samples.

Results

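The receptors described here transmit the glial cell line-derived neurotrophic factor (GDNF) family, the neurotrophins and the ligands of ALK, and their transcripts were compared in a neuroblastoma line with and without induction of KDM4C. KDM4C is a histone demethylase. The 9 receptor genes were chosen by name, with earlier results of these data known, as GFRA1, GFRA2, GFRA3, GFRA4, RET, ALK, NTRK2, NTRK3 and NGFR. Probe sets annotated to exactly 1 of these symbols were found for 7 of the 9, with 1 probe set each, among 53617 probe sets in all. NTRK2 and NTRK3 had no named probe set and are not analysed here.

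The cells were BE(2)-C_tetoff_KDM4C, a derivative of the human MYCN-amplified neuroblastoma line BE(2)-C that carries a tet-off construct for KDM4C. Both groups carry the construct and were grown in medium with dialyzed serum. In 3 samples the cells were kept without doxycycline for 6 days, which lets the construct be expressed. In 3 samples they were kept with doxycycline for 6 days, which is meant to hold it silent. A tet-off line is driven by an artificial promoter, the labels do not say whether it is 1 clone, and cells lacking the construct were not analysed here, so KDM4C induction and removal of doxycycline cannot be told apart.

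RET is the receptor tyrosine kinase of the GDNF family. Its ligands do not bind it alone but first bind a GFRA co-receptor, a protein held on the cell surface by a lipid anchor, and each co-receptor prefers a ligand: GFRA1 binds GDNF, GFRA2 neurturin, GFRA3 artemin and GFRA4 persephin. ALK is a separate receptor tyrosine kinase and the main gene of hereditary neuroblastoma, while NGFR is the low-affinity receptor shared by the neurotrophins. In the sympathetic nervous system, from whose precursors neuroblastoma arises, GFRA3 with RET is known, from mice, to direct migrating neuroblasts and growing axons towards artemin.

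Each value was a log2 expression value on 1 Affymetrix whole-transcript array. The array medians lay between 3.94 and 3.96, and arrays correlated at 0.991 to 0.993 within groups and at 0.990 to 0.991 between groups. KDM4C itself, probe set 17083492, was at 8.97, 9.08 and 9.02 without doxycycline, against 7.71, 7.77 and 7.80 with it. That is a 2.40-fold higher level without doxycycline (limma adjusted p = 0.0079), the direction the labels imply for a tet-off construct. With 1 array left out its limma adjusted p was 0.0311 to 0.0696, above the threshold without doxycycline-treated array 1 or 2 or untreated array 2 or 3. All 8 measured noradrenergic neuroblast markers, among them TH, DBH, HAND2 and GATA3, lay above the median probe set. Their mean level per array ran from 9.95 to 10.0 in both groups.

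The promoter windows of GFRA3, ALK and RET are shown because these 3 receptors had the largest positive differences. Each runs from 250 bases before to 50 bases from the annotated start (RefSeq, GRCh38.p14), written along the gene's own strand. Windows were found for GFRA3 at chr5:138274572-138274871 (minus strand), ALK at chr2:29921537-29921836 (minus strand) and RET at chr10:43076819-43077118 (plus strand). Capitals mark matches, on either strand, to GGGCGG (the GC box bound by SP1) or CAGCTG (an E-box bound by basic helix-loop-helix factors).
GFRA3: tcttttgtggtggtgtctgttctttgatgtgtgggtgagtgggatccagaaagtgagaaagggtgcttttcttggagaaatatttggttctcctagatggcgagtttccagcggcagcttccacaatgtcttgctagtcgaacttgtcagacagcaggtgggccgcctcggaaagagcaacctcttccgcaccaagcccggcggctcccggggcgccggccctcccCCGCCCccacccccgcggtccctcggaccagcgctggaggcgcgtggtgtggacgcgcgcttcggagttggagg
ALK: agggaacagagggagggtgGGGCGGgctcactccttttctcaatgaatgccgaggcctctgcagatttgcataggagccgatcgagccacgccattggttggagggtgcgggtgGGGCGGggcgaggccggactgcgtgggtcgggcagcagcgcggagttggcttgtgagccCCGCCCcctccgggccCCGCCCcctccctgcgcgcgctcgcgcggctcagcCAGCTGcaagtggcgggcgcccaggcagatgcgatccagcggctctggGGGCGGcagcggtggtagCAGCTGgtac
RET: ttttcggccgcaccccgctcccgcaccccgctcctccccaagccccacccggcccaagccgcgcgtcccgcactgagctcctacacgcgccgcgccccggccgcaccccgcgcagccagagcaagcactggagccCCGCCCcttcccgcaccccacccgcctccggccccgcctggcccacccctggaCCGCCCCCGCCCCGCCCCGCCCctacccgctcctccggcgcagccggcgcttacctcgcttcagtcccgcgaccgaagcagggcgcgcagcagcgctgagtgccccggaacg

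The GC box occurred 5 times in the ALK window, 5 times in the RET window and 1 time in the GFRA3 window, and 45.0% of 35116 promoter windows of the same length held at least 1. In the RET window 4 of the 5 adjoin or overlap each other and make up the one long run of capitals. CAGCTG occurred 2 times in the ALK window and in neither of the others, and 17.9% of all windows held at least 1. These shares do not give the usual number of matches per window, so the counts cannot be called high or low. None of the 3 windows held TGANTCA (an AP-1 site, in 7.71% of all windows), TGATGNAA (a composite site of CHOP and ATF4, in 3.62%) or CACGTG (an E-box bound by MYC, in 7.26%). G and C made up 61.3% of the GFRA3 window, 71.0% of the ALK window and 78.7% of the RET window, and the median window had 58.7%. These matches describe letters in a window, and no binding was measured.

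GFRA3 was the 1 receptor of the 7 that rose without doxycycline in the test over all probe sets. ALK lay just outside the threshold, RET and GFRA2 had smaller positive differences, and GFRA1, GFRA4 and NGFR had small negative ones within wide intervals. Of all probe sets, 0.248% were called higher, 0.0933% lower and 0.341% in either direction. The median log2 difference of the 7 receptors was 0.15, beside 0.006 over all probe sets. At an unadjusted p below 0.05, 4 of the 7 were higher and 0 lower, while over all probe sets 6.7% were higher and 5.73% lower, 12.4% in all. The same 4, GFRA3, ALK, RET and GFRA2, had groups that did not overlap, which was so in 19.3% of all probe sets, 10.2% with the higher values without doxycycline. Because the receptors were chosen with earlier results of these data known, these counts and the median describe them and do not test them as a group.

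**Figure D1:**
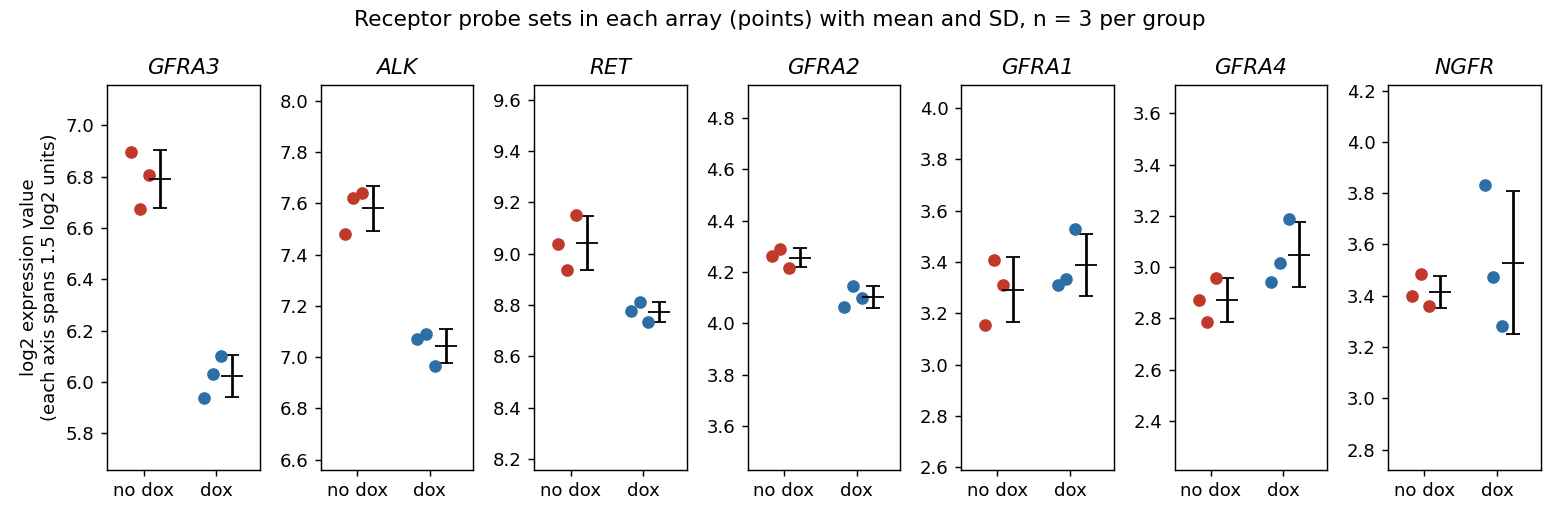
Log2 expression value of each receptor's probe set in the 3 arrays without doxycycline (red, left) and the 3 with it (blue, right), with the mean and SD beside the points; every axis spans the same range. GFRA3, ALK, RET and GFRA2 have groups that do not overlap, while those of GFRA1, GFRA4 and NGFR do.

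GFRA3, the artemin co-receptor (probe set 17000428), was at 6.90, 6.67 and 6.81 without doxycycline, against 5.94, 6.03 and 6.10 with it. Every array without doxycycline lay above every array with it. The means were 6.79 ± 0.11 and 6.02 ± 0.08 (log2, SD, n = 3 each), a 1.70-fold higher level without doxycycline. The log2 difference was 0.77 (SE 0.08, 95% confidence interval 0.57 to 0.97, limma adjusted p = 0.0307). With any 1 of the 6 arrays left out the log2 difference stayed between 0.72 and 0.83, but the limma adjusted p was then 0.0912 to 0.144, so the call needs all 6 arrays. This loss is not particular to GFRA3, as in those fits only 0 to 12 of all probe sets were called higher and 0 to 3 lower.

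ALK (probe set 16896049) was at 7.48, 7.62 and 7.64 without doxycycline, against 7.07, 7.09 and 6.97 with it. The groups did not overlap, and the arrays within each differed by far less than the groups did. The means were 7.58 ± 0.09 and 7.04 ± 0.07 (log2, SD, n = 3 each), a ratio of 1.45. The log2 difference was 0.54 (SE 0.08, 95% confidence interval 0.36 to 0.72) with a limma adjusted p of 0.0565. ALK passed with quantile normalization (limma adjusted p = 0.0481), without dim probe sets (0.0421), with trend and robust moderation (0.0338) and when only named probe sets were tested (0.0108). It did not pass with arrays centred on their medians (0.0606), with the replicate block (0.208) or when any single array was left out (0.123 to 0.192).

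RET, the shared kinase of the GDNF family (probe set 16704154), was at 9.04, 8.94 and 9.15 without doxycycline, against 8.78, 8.81 and 8.73 with it. All 3 arrays without doxycycline were the higher ones, by a narrow margin. The log2 difference was 0.27 (SE 0.08, 95% confidence interval 0.09 to 0.45, limma adjusted p = 0.240), a ratio of 1.20. It did not pass in any of the settings run, leaving out single arrays included.

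The other 3 GDNF family co-receptors did not pass. GFRA2, the neurturin co-receptor (probe set 17075248), was at 4.26, 4.29 and 4.22 without doxycycline, against 4.06, 4.15 and 4.10 with it, a log2 difference of 0.15 (95% confidence interval 0.005 to 0.30, limma adjusted p = 0.390). Its groups did not overlap. GFRA1, the GDNF co-receptor (probe set 16718670), was at 3.16, 3.41 and 3.31 without doxycycline, against 3.31, 3.33 and 3.53 with it, a log2 difference of -0.10 (95% confidence interval -0.33 to 0.13). GFRA4, the persephin co-receptor (probe set 16916756), was at 2.87, 2.78 and 2.96 without doxycycline, against 2.94, 3.02 and 3.19 with it, a log2 difference of -0.18 (95% confidence interval -0.39 to 0.03). In both of these the groups overlapped. The lower bounds of the intervals for GFRA1 and GFRA4 still allow a decrease of 0.33 and 0.39 on the log2 scale.

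NGFR (probe set 16835592) was at 3.40, 3.48 and 3.36 without doxycycline, against 3.83, 3.47 and 3.28 with it. The arrays with doxycycline spread most of all the receptors, with an SD of 0.28 against 0.06 without doxycycline. The log2 difference was -0.11 (95% confidence interval -0.45 to 0.22, limma adjusted p = 0.796). It rested on doxycycline-treated array 1, without which it was 0.04.

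**Figure D2:**
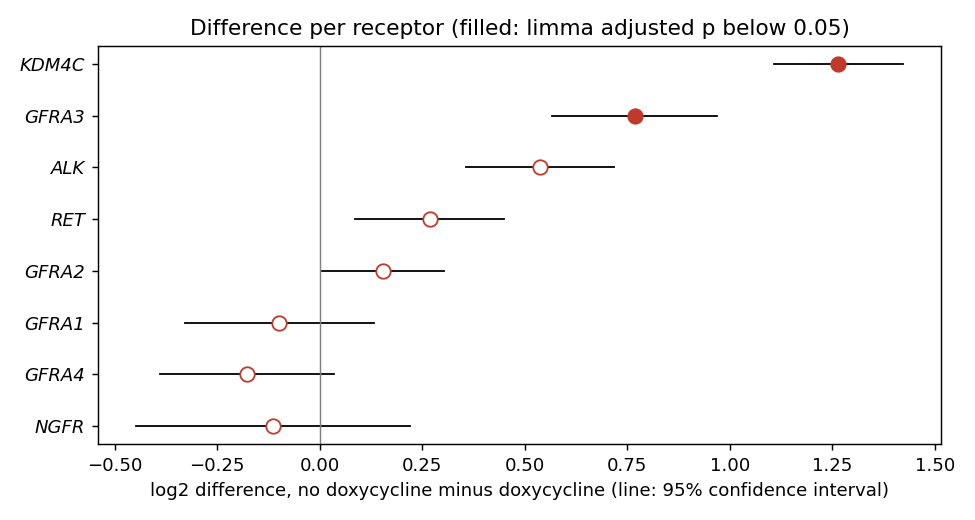
Log2 difference, no doxycycline minus doxycycline, for KDM4C and the 7 receptors, with 95% confidence intervals; filled points passed a limma adjusted p of 0.05. KDM4C at 1.27 and GFRA3 at 0.77 are filled, and the intervals of ALK, RET and GFRA2 lie above 0.

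The receptors' signals occupied different parts of the table. Averaged over all 6 arrays, RET lay at percentile 93.4 of all probe sets, ALK at 83.7, GFRA3 at 76.9 and GFRA2 at 54.8. NGFR, GFRA1 and GFRA4 lay below the median probe set, at percentiles 34.0, 26.9 and 5.6. Probes of different sequence bind with different strength, so these places describe signal and do not rank the receptors by transcript number. No detection call was used here, so it cannot be said whether the 3 dim receptors were expressed, and a change in a dim probe set could be missed.

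Among the 4 receptors above the median probe set, 4 pairs were also compared inside each array, as the log2 difference between a pair of probe sets. Of each, the change between groups, and not the offset, is given. Every pair held GFRA3 or ALK, the receptors with the largest differences, and the other pairs, such as RET with GFRA2, were not compared. This choice of pairs favours a difference between the groups. The difference GFRA3 minus RET was 0.50 higher without doxycycline, GFRA3 minus GFRA2 was 0.61 higher and ALK minus RET 0.27 higher. In these 3 pairs every array without doxycycline lay above every array with it, and the two-sided exact permutation p was 0.1, the smallest that 3 against 3 arrays can give (0.133 after Benjamini-Hochberg adjustment over 4 pairs). GFRA3 minus ALK was 0.23 higher, with overlapping groups (exact permutation p = 0.2, adjusted 0.2). None of the 4 can reach the threshold in this design, so an unequal response is not shown by this test.

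Of the ligands listed for these receptors and their relatives, 1 rose. GDF15, a distant relative of the GDNF family, signals in the brainstem through RET and GFRAL, which is not among the receptors chosen here. It was at 6.38, 6.29 and 6.64 without doxycycline, against 5.11, 5.12 and 5.51 with it (2.28-fold, limma adjusted p = 0.0381). It did not pass with any 1 of the 6 arrays left out (limma adjusted p = 0.0578 to 0.156). Its own co-receptor GFRAL had a log2 difference of -0.003, in a dim probe set at percentile 26.7 of all probe sets. The other 3 measured GDNF family ligands had negative differences and did not pass: neurturin (NRTN) at -0.26, artemin (ARTN) at -0.21 and persephin (PSPN) at -0.18. The groups of NRTN and ARTN did not overlap, as in 19.3% of all probe sets, and those of PSPN did. ARTN, the ligand of GFRA3, was at 3.06, 3.09 and 2.91 without doxycycline, against 3.19, 3.19 and 3.31 with it (limma adjusted p = 0.347). All 3 lay below the median probe set, and GDNF had no named probe set.

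Among 1 probe set for each of 14884 named genes, 0.43% were called higher and 0.134% lower, and the counts of the gene lists are set beside these shares. The GDNF family ligand list, with GDF15 in it, had 1 higher and 0 lower of 4. At an unadjusted limma p below 0.05 it had 1 higher and 2 lower, NRTN and ARTN, beside 7.57% and 6.87% of the named genes. The neurotrophins BDNF and NTF4, the 2 of 4 measured, were at -0.17 and 0.04, and neither passed. Of the ALK ligands and candidates 2 of 6 listed symbols, MDK and PTN, were measured and 0 passed. ALKAL1, ALKAL2, FAM150A and FAM150B had no named probe set, so nothing can be said of them. MDK, the heparin-binding growth factor midkine, was at 7.47, 7.46 and 7.43 without doxycycline, against 6.97, 6.98 and 7.24 with it, a log2 difference of 0.39 (limma adjusted p = 0.166). PTN, the related pleiotrophin, was at 0.09.

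None of 10 measured related receptors and co-receptors passed with limma, 0 at an unadjusted p below 0.05, and their median log2 difference was 0.01. SORCS1, a sortilin family receptor, was at 0.15 and LINGO1, a partner of NGFR, at 0.22. LTK, the paralog of ALK, was at -0.12 (95% confidence interval -0.28 to 0.04) and SDC3, a proteoglycan that binds GDNF, at -0.11. NCAM1, a receptor for GDNF with GFRA1, was at 0.04.

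Of 42 other receptor tyrosine kinases 0 passed with limma, while 2 were higher and 8 lower at an unadjusted p under 0.05. Of the named genes 7.57% were higher and 6.87% lower by that measure. Their median was -0.05, beside -0.002 over the named genes. ERBB4, a receptor for neuregulins, was at 7.31, 7.20 and 7.41 without doxycycline, against 7.92, 7.84 and 7.83 with it, a log2 difference of -0.56 (limma adjusted p = 0.0554). EPHA6, an ephrin receptor, was at -0.57 (limma adjusted p = 0.0565), and DDR2, a collagen receptor, and MET were at 0.35 and 0.19. ERBB4 and EPHA6 passed as lower without dim probe sets and with named probe sets only, and ERBB4 also with trend and robust moderation. DDR2 passed, on the higher side, with named probe sets only (limma adjusted p = 0.0409) and with trend and robust moderation (0.0462).

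Among adaptors and proximal effectors 0 of 17 passed with limma, while 1 was higher and 3 were lower without adjustment (p under 0.05), and the median was -0.02. SHC1, the adaptor that links RET, ALK and the TRK receptors to RAS, was at 9.95, 9.87 and 9.78 without doxycycline, against 10.4, 10.4 and 10.3 with it. Its groups did not overlap, with a log2 difference of -0.50 (95% confidence interval -0.68 to -0.33, limma adjusted p = 0.0605), and it passed as lower without dim probe sets, with trend and robust moderation and with named probe sets only. BEX3, which binds NGFR, was at -0.22. GAB2 and GAB1, docking proteins of the same pathways, were at 0.21 and 0.24.

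ERK pathway targets, a common output of all these kinases and of many other receptors, rose in 4 of 12 measured genes and fell in 0. Of the named genes 0.43% were called higher and 0.134% lower. Without adjustment (limma p under 0.05) 8 of the 12 were higher and 0 lower, beside 7.57% and 6.87% of the named genes. The list median was 0.34. This list, like the others, was chosen with earlier results of these data known. DUSP6, the phosphatase that inactivates ERK, was at 7.12, 7.25 and 7.15 without doxycycline, against 6.46, 6.55 and 6.36 with it (1.64-fold, limma adjusted p = 0.0299). SPRY2, a feedback inhibitor of receptor tyrosine kinases, was at 7.60, 7.69 and 7.56 without doxycycline, against 7.07, 7.01 and 6.94 with it (1.52-fold, limma adjusted p = 0.0340). EGR1 and FOS, immediate early transcription factors, also rose, with log2 differences of 1.02 and 0.84. Their dimmer probe sets were at 0.43 and -0.11. With the mean of its probe sets FOS had a log2 difference of 0.37, against 0.84 as reported, and did not pass (limma adjusted p = 0.140). ETV4 and DUSP4 were at -0.08 and -0.05. With any 1 array left out 0 of the 12 passed. In those fits only 0 to 12 of all probe sets were called higher and 0 to 3 lower, so few calls of any gene remained. Phosphorylation of the receptors or of ERK was not measured.

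Of 11 measured sympathetic lineage factors, transcription factors of the cells in which RET and ALK are normally found, 0 passed with limma, 2 were higher and 0 lower without adjustment (p under 0.05), and the median was 0.13. HAND1 was at 0.33 and TFAP2B at 0.15, and INSM1 and HOXB5 were at -0.19 and -0.07.

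**Figure D3:**
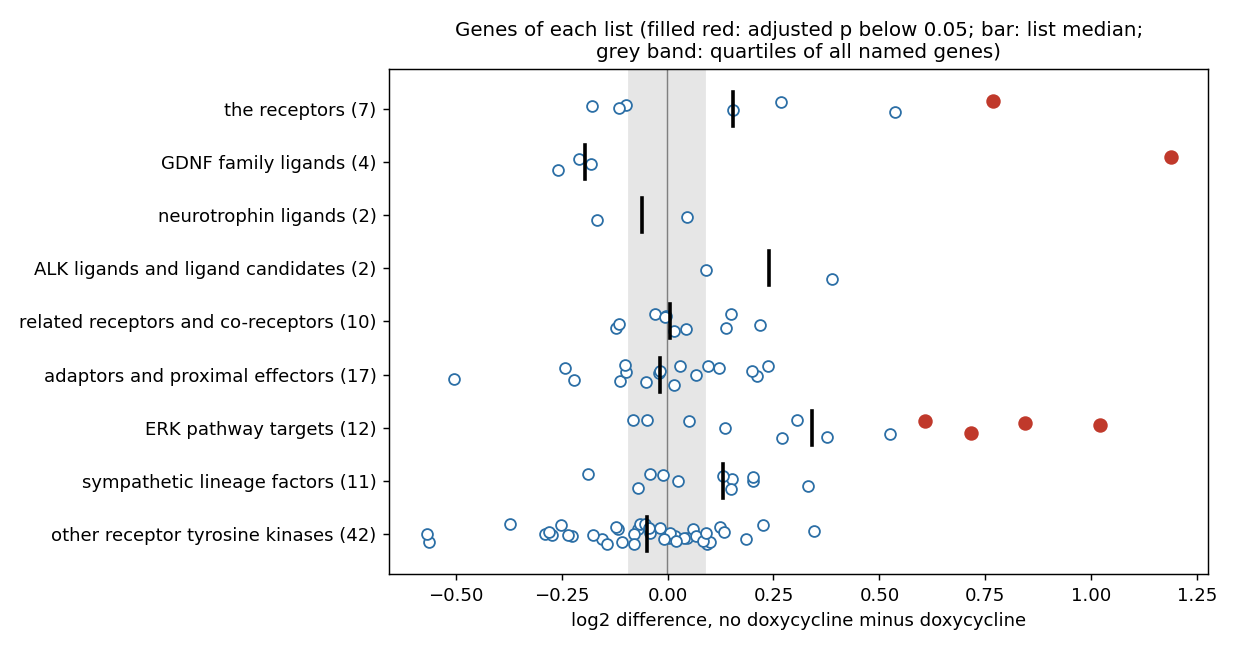
Log2 difference, no doxycycline minus doxycycline, for 1 probe set per gene in each list (points; filled red at a limma adjusted p below 0.05), with the list median as a bar and the range between the quartiles of all named genes as a grey band. GFRA3, GDF15 and 4 ERK pathway targets are filled, and none of the 42 other receptor tyrosine kinases is.

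Markers of the other cell types a culture could hold did not pass. The mean level per array of the 4 Schwann and neural crest markers measured was 3.86 to 3.97 without doxycycline and 3.96 to 4.10 with it, and 1 of the 4 lay above the median probe set. Of 5 mesenchymal markers, CD44 was at -0.67 (limma adjusted p = 0.0770), VIM at -0.19 and FN1 at 0.05, and their mean level per array was 4.95 to 5.04 without doxycycline and 5.16 to 5.29 with it. The 3 blood markers, CD68, TYROBP and LAPTM5, were at 0.01, -0.01 and 0.10, with a mean level of 4.10 to 4.23 without doxycycline and 4.05 to 4.20 with it. Among noradrenergic markers TH and DBH were at 0.34 and 0.28, and CHGA and CHGB at -0.40 and -0.34 (limma adjusted p = 0.0856 and 0.0853). Their part in the receptor differences was not tested. In whole-culture RNA, a change in the share of cells and a change in RNA per cell cannot be told apart.

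The named genes whose deviations over the 6 arrays were closest to those of GFRA3 were ARRDC3, SIPA1L2 and TROAP, with mean absolute differences of 0.044, 0.063 and 0.067 on the log2 scale among 16097 other named probe sets. Their log2 differences between the groups were 0.72, 0.65 and 0.70, near the 0.77 of GFRA3, which is what the measure selects for.

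The genes next to each receptor on its chromosome were also read, by the gene order of the RefSeq annotation (GRCh38.p14, protein-coding genes). Of 14 neighbours 9 had a named probe set. Over the named genes 0.43% were called higher and 0.134% lower, and of these 9 neighbours 1 passed. That was CDC25C, the phosphatase that activates CDK1 at the entry to mitosis, which lies beside GFRA3 on chromosome 5. CDC25C was at 6.67, 6.87 and 6.77 without doxycycline, against 6.06, 6.18 and 6.18 with it, a log2 difference of 0.63 (limma adjusted p = 0.0449, and 0.0514 with arrays centred on their medians). It did not pass with any 1 array left out (limma adjusted p = 0.114 to 0.171). CDC23, on the other side of GFRA3, was at -0.13 (95% confidence interval -0.30 to 0.05). The genes next to ALK and RET with a probe set, YPEL5 and CSGALNACT2, were at 0.06 and 0.22, and neither passed. The neighbours were looked up after the receptors' values were seen, and no chromatin mark was measured.

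**Figure D4:**
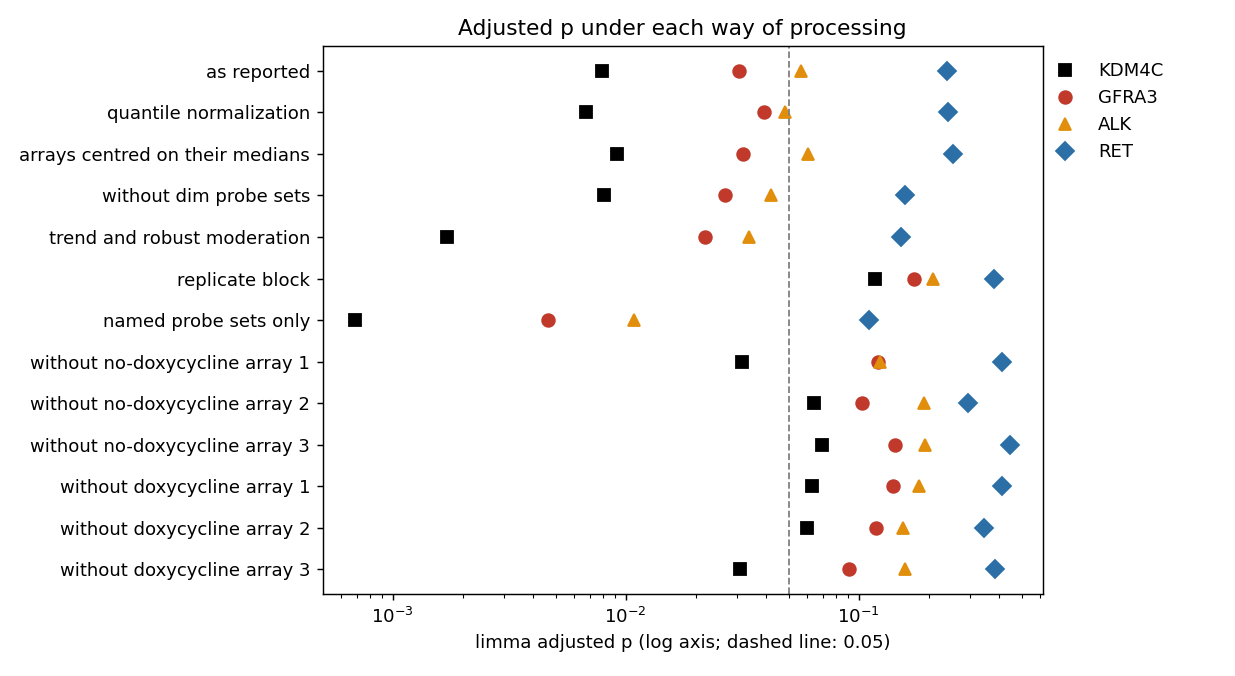
Limma adjusted p on a log axis for KDM4C, GFRA3, ALK and RET as reported and under each alternative, with the threshold of 0.05 dashed. GFRA3 lies left of the line as reported and in 5 of the alternatives, and right of it with the replicate block and with any array left out; ALK lies left of it in 4 of the alternatives and right of it otherwise, and RET right of it throughout.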

How the data were processed

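Total RNA of 6 samples, 3 without and 3 with doxycycline, was labelled with biotin and hybridised to Affymetrix whole-transcript arrays, per the labels' protocols. The deposited values are on a log2 scale, 1 per array for each probe set. Partek is named, without a version, per the submitters' processing notes; how the arrays were background-corrected, normalized and summarized, and on which build, is not given in the sources used here. Values ran from 2.12 to 14.3, which in 16-bit scanner data leaves log2.

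Gene names came from the platform annotation held by GEO, in which 16098 probe sets had 1 symbol, 0 several and 37519 none. All 16098 Entrez identifiers were found in RefSeq's gene table, which changed 0 symbols.

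The fit used limma 3.58.1 under R 4.3.3 (lmFit and eBayes) on all 53617 probe sets, without covariates or a filter, and p-values were adjusted by Benjamini-Hochberg with a threshold of 0.05. Log2 differences are no doxycycline minus doxycycline. A gene with several probe sets was represented by the one with the highest mean. The procedure was also run on simulated data with known changes, independent noise and no effect shared by an array. That run checks the code and does not bear on the calls reported here. The design text calls the samples independent without naming separate cultures. The p-values weigh each group difference against the spread between these samples within groups, moderated over all probe sets. Whether that spread includes variation between separate cultures is not known. The number of samples limits the precision.

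The receptors and the 12 other lists were chosen with earlier results of these data known. Named genes were all receptors, KDM4C, in each list those past the threshold and, in each direction, the 2 of smallest p, and the 3 closest to the receptor with the smallest p; other genes named, such as the neighbours, NCAM1, GFRAL and PSPN, were chosen after their values were seen. Alternatives were quantile normalization, median centring, leaving out dim probe sets, trend and robust moderation, a replicate block, named probe sets only, the mean of a gene's probe sets for the lists, and leaving out each array.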

Additional observations from a re-analysis of the deposited data

How the results depend on the processing

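The differences of the 7 receptors and KDM4C kept their direction in every setting run, except NGFR, which was 0.037 without doxycycline-treated array 1 (-0.24 to 0.037 with 1 array left out). GFRA3 kept its call with quantile normalization, median centring, trend and robust moderation, named probe sets only and without dim probe sets. With a replicate block GFRA3 (log2 difference 0.77, limma adjusted p = 0.174) and KDM4C (1.27, adjusted p = 0.118) lost theirs, and 0 of all probe sets, receptors, GDNF family ligands or ERK pathway targets passed. The numbers are not shown to pair the samples: the deviations of same-numbered samples correlated at -0.01, -0.01 and 0.04. ALK, at 0.54 in each of them, crossed the threshold in 4 settings, so that 2 receptors passed with quantile normalization, without dim probe sets, with trend and robust moderation and with named probe sets only. The 133 higher and 50 lower probe sets became 204 and 107 without dim probe sets, 255 and 130 with trend and robust moderation, and 265 and 147 with named probe sets only; fewer probe sets were tested in the first and the last. In these 3 settings 1, 1 and 1 adaptor and 2, 2 and 3 other receptor tyrosine kinases passed. Trend and robust moderation gave 2 noradrenergic markers, and named probe sets only gave 2, 1 mesenchymal marker and 7 ERK pathway targets. With 1 array left out, 0 to 12 probe sets were higher and 0 to 3 lower, and 0 receptors and 0 genes of any list passed. The log2 difference then ran from 0.50 to 0.59 for ALK, 0.21 to 0.32 for RET, 0.72 to 0.83 for GFRA3 and 1.24 to 1.29 for KDM4C, whose adjusted p was 0.0311 to 0.0696. It was -0.018 to 0.089 for FN1, -0.026 to 0.044 for CD68 (-0.0036 with centred arrays) and -0.10 to 0.093 for TYROBP. The mean of a gene's probe sets moved no list count by more than 1.5 times, though FOS lost its call (0.37, adjusted p = 0.140). The cause of these shifts was not tested beyond the numbers of arrays and probe sets given. No background level could be set, which limits statements on GFRA1, GFRA4 and NGFR.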
